A study of Oncorhynchus mykiss with 60 samples.

Results

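Section D is the fourth of the 5 slices, lettered A to E from the animal to the vegetal pole, into which rainbow trout (Oncorhynchus mykiss) embryos were cut for RNA sequencing. Its transcripts were compared between embryos at 3 days post fertilization (3 dpf) and at 1 dpf. The samples were chosen by their labels alone: section D at either stage gave 3 libraries at 3 dpf and 3 at 1 dpf, which is 6 of the 55 libraries with counts. The 3 dpf embryos are labelled mid-blastula, at about 1000 cells, and the 1 dpf embryos early blastula, at about 32 to 64 cells. Both groups are untreated embryos for which no strain, genotype or parent is named, and each replicate carries the number 1, 2 or 3. Per the labels' protocols, all sections went through lithium chloride precipitation, depletion of ribosomal RNA and directional library preparation from 30 ng of total RNA. A library therefore gives a transcript's share of the RNA of its section. Fewer cells of a type and less RNA per cell cannot be told apart in such values, nor can less of a transcript and more of the other RNA.

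In fish the embryo forms from a cytoplasmic cap at the animal pole, and the sections farther down are mostly yolk with a thin layer of cytoplasm. The egg is loaded by the mother with mRNA that runs development until the embryo switches on its own genome around the blastula stage, when many maternal mRNAs are also destroyed. Some maternal mRNAs are kept at the vegetal pole. In zebrafish these include the dorsal determinant hwa and its partners, and germ plasm mRNAs such as dazl. The comparison asks how the RNA of a section on the vegetal side differed between the stages, beside that of the cap.

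The section D libraries held 1.09, 4.33 and 3.77 M counts at 3 dpf and 4.57, 6.45 and 5.76 M at 1 dpf (M, 1e6 counts). The 1.09 M of 3 dpf replicate 1 were the lowest total of all 55 libraries, which ran to 14.46 M with a median of 4.6 M. Levels are given as CPM, a gene's count per 1e6 counts of its library, with library sizes adjusted by TMM, edgeR's trimmed mean method. A gene without a count lay under the level of 3 counts, which was 2.98 CPM in that shallowest library and 0.504 to 0.919 CPM in the other 5. In every pair of replicates the counts differed beyond sampling noise, since chi-square divided by its degrees of freedom was 2.93 to 18.5 among the 3 dpf libraries and 3.75 to 13.1 among those of 1 dpf. The labels were compared with transcripts listed as vegetal. The lists were chosen with earlier results of these data known, so this is not an independent check of the labels. The summed level of 19 such features, among them copies of hwa, grip2, trim36, slbp2 and dazl, was 10800, 7510 and 14200 CPM in section D at 3 dpf and 6580, 10400 and 12400 CPM at 1 dpf. In each of the 6 replicates this sum lay between that of section C and that of section E. A second sum took 18 features listed as high at the animal pole. In section D it lay between 305 and 381 CPM for 3 dpf and between 247 and 327 CPM for 1 dpf. In section A it lay between 11900 and 12800 CPM for 3 dpf and between 1970 and 2570 CPM for 1 dpf. At 3 dpf it lay between 244 and 349 CPM in section C and between 229 and 589 CPM in section E. This sum did not place D between C and E in any 3 dpf replicate, nor in 1 dpf replicate 3.

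No gene passed the test in section D. Of 19828 genes tested with edgeR's quasi-likelihood test, 0 were higher (0%) and 0 were lower (0%) at 3 dpf than at 1 dpf at an adjusted p of 0.05, and every adjusted p was 1. At an unadjusted p of 0.05 there were 133 genes higher (0.671%) and 205 lower (1.03%), together 338 or 1.7% of the genes tested. This fit leaves differences between replicate numbers in its spread, so a lack of calls is by itself no evidence that levels were stable. DESeq2 on the same libraries also called 0 genes, with 80 higher and 144 lower at an unadjusted p of 0.05 and a smallest adjusted p of 0.12. The median fitted log2 fold change over all genes was 0.01, and the middle 50% of genes lay between -0.19 and 0.18. The fitted values ran from -2.01 to 2.57, and 195 genes had a value of 2-fold or more in either direction. The 3 libraries of 3 dpf lay all above or all below the 3 of 1 dpf in 1664 genes (8.39%), 800 of them higher and 864 lower. As 0 of these were called, a lack of overlap is by itself no evidence of a change in a single gene named below.

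The libraries bounded most changes more closely than a missed threshold does. The 95% interval of the log2 fold change had a median half-width of 0.68. It lay within a 2-fold change in either direction for 11641 genes (58.7%) and within a 4-fold change for 18835 genes (95%). For the remaining genes a change of 2-fold or more was not excluded at this depth and this spread between replicates. With the replicate number as a block the count of called genes was also 0, with a smallest adjusted p of 0.441 and 1077 genes at an unadjusted p of 0.05. When the spread was estimated over all 30 libraries of both stages, 1 gene was called, the transcription termination factor gene ttf2, at a log2 of -0.86 and an adjusted p of 0.0495.

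**Figure D1:**
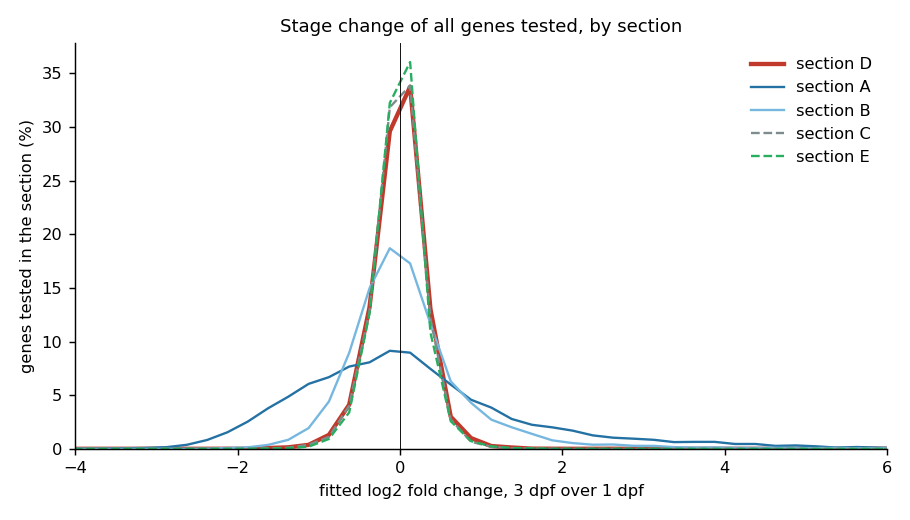
Distribution of the fitted log2 fold change, 3 dpf over 1 dpf, over all genes tested in each section, as the percentage of genes per bin of the x axis. The middle 50% of genes lies between -0.19 and 0.18 in section D, between -0.18 and 0.17 in C and between -0.17 and 0.16 in E, while section A is spread from -0.82 to 0.79 over its middle 50%.

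The same fit was made in the other sections. It called 6026 genes higher (27.6%) and 5516 lower (25.3%) of 21844 in section A, and 1513 higher and 692 lower of 21711 in section B. In section C it called 0 of 19974 genes, with 385 higher and 443 lower at an unadjusted p of 0.05. In section E it called 0 of 19005, with 100 higher and 112 lower at that p. Section D was thus without calls together with both of its neighbours. The difference in stage change was then tested itself, over 23010 genes in 1 fit of the 30 libraries with a term for each replicate of each stage. Against section A the change in section D was higher for 5136 genes (22.3%) and lower for 4964 (21.6%). Under library-size scaling, which moved the median difference of all genes to 0.36 from 0.02, these counts were 7424 and 3452. Against section C and against section E edgeR called 0 genes (0% in either direction for both), with 630 and 504 genes at an unadjusted p of 0.05 and a smallest adjusted p of 1 in each.

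Genes that changed at the cap were followed into section D. Of 4320 genes at least 2-fold higher in section A at 3 dpf, 2846 were tested in section D, and their median log2 fold change was 1.67 in A and 0.03 in D. The middle 50% of these genes lay between -0.2 and 0.23 in D, and the medians in B, C and E were 0.54, 0 and 0.06. For 2671 of them (93.9%) the 95% interval in section D excluded the value fitted in section A. That comparison leaves out the error of the value in A, by which these genes were chosen. The test of the difference itself called 2665 of them. At an unadjusted p of 0.05, 38 of them were higher in D and 28 lower, and 0 were called. Of 3788 genes at least 2-fold lower in A, 3715 were tested in D, with a median of -1.5 in A and -0.01 in D. The interval in D excluded the value of A for 3498 of those (94.2%), and the test of the difference called 3317. The other 1474 genes that were higher in A did not pass the filter in section D, at a median of 0.746 CPM at 3 dpf and 0.549 CPM at 1 dpf, against 14.7 and 1.54 CPM at those stages in A.

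**Figure D2:**
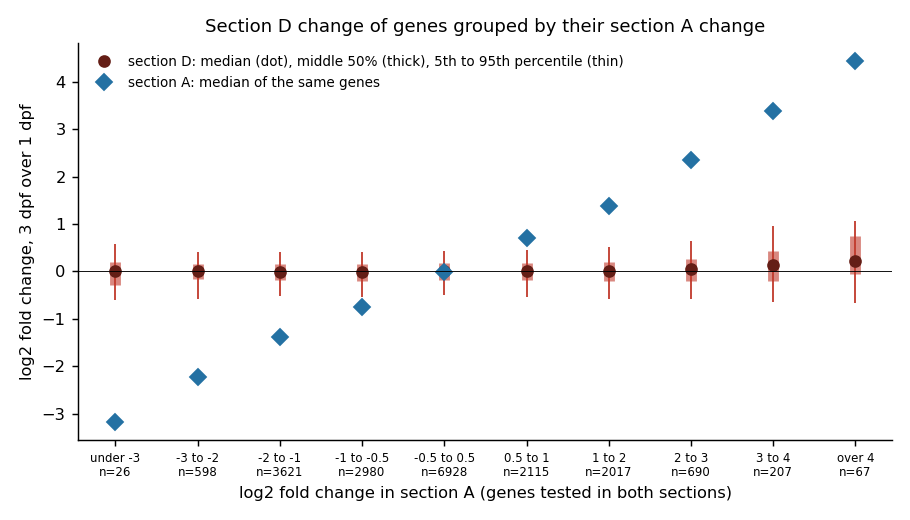
Log2 fold change, 3 dpf over 1 dpf, in section D (red: dot for the median, thick bar for the middle 50% and thin bar for the 5th to 95th percentile) and in section A (blue diamonds, median) for genes grouped by their change in section A. The median in D stays between -0.01 and 0.23 in every group, including the 67 genes over 4 in A, whose median there was 4.44.

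The small offset at the right end of that plot can be read from its values. Among genes with a log2 fold change between 3 and 4 in section A (207 genes) the median in section D was 0.13, and over 4 (67 genes) it was 0.23, with 5% of those 67 above 1.07. The genes grouped here passed the filter on low counts in section D. How much of the offset belongs to any single library was not tested.

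Gene lists were then read by function. In section A 27.6% of all genes rose and 25.3% fell, the shares beside which the counts of each list there stand. Of 124 cytosolic ribosomal protein genes tested in section D, 0 passed in either direction, with a median log2 fold change of 0.16 against 0.01 for all genes, while 169 of 184 rose in section A and 8 fell there, at a median of 3.33. Their summed level was 2110, 2060 and 2470 CPM in section D at 3 dpf and 2040, 2110 and 2230 CPM at 1 dpf. The groups overlapped in that sum. In section A it was 22500, 24800 and 20500 CPM at 3 dpf and 3360, 3080 and 3470 CPM at 1 dpf, with no overlap. The stage change in D was below that in A for 162 of 184 of these genes and above it for 6, against 21.6% and 22.3% of all genes.

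Within the ribosomal list, rpl37a, a protein of the large subunit, had the smallest unadjusted p. It was at 8.94, 6.48 and 15.3 CPM in section D at 3 dpf and at 3.54, 4.54 and 4.37 CPM at 1 dpf, a log2 fold change of 1.31 (SE 0.41, unadjusted p = 0.0111, adjusted p = 1 by edgeR). The libraries of 3 dpf lay above those of 1 dpf, at levels that rest on few counts. In section A its mean was 202 ± 28 CPM at 3 dpf and 14.6 ± 2.57 CPM at 1 dpf (SD, n = 3). Of the ribosomal genes tested in D, 5 of 124 had an unadjusted p under 0.05 for a higher level and 0 for a lower one, against 0.671% and 1.03% of all genes tested.

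Splicing, translation and ribosome assembly genes were likewise without a call in D. Of 128 spliceosome genes tested in section D, of 109 translation factor genes and of 97 ribosome assembly genes, 0 passed in each list, at medians of 0.02, 0.09 and 0.03. In section A 126 of 135, 90 of 120 and 99 of 102 of them rose. The elongation factor gene eef1a1b/eef1a1l2 (LOC110496143), which delivers aminoacyl-tRNA to the ribosome, was at 65.6, 47.1 and 61.9 CPM in section D at 3 dpf and at 35.6, 33 and 31.4 CPM at 1 dpf. All 3 libraries of 3 dpf lay above those of 1 dpf, with a log2 fold change of 0.80 (SE 0.20, unadjusted p = 0.00293, adjusted p = 1). In A its mean was 3010 ± 275 CPM at 3 dpf and 271 ± 27.4 CPM at 1 dpf, a log2 of 3.39. The change in D was 2.64 below that in A on the log2 scale (SE 0.41, adjusted p = 9.99e-06).

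The spliceosome gene prpf38b had lower values at 3 dpf. It stood at 21.9, 27.9 and 13.2 CPM in section D at 3 dpf and at 47.4, 44.4 and 48.4 CPM at 1 dpf, a log2 fold change of -1.15 (SE 0.28, unadjusted p = 0.00293, adjusted p = 1). In section A it rose by a log2 of 1.33 (adjusted p = 7.4e-05), and the difference between D and A was -2.53 (SE 0.24, adjusted p = 1.68e-08). The fitted value was -0.66 in section C and -0.74 in section E. U2 snRNP gene sf3b1 (LOC110501835) was at 14.9, 27.4 and 11.9 CPM in D at 3 dpf and at 29.2, 33.5 and 42.3 CPM at 1 dpf, a log2 of -0.91 (unadjusted p = 0.023), without overlap of the groups.

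**Figure D3:**
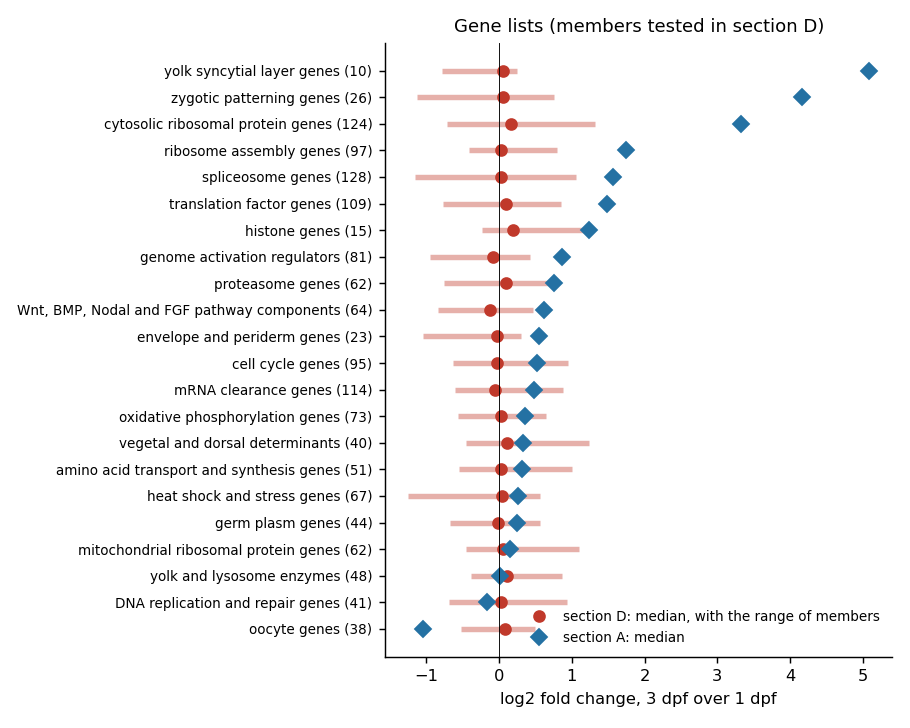
Median log2 fold change, 3 dpf over 1 dpf, of each gene list in section D (red dots, with the range over its tested members as a bar) and in section A (blue diamonds). Each median is over the members tested in that section, so the gene sets differ. For yolk syncytial layer genes these were 10 in D and 25 in A. The number of members tested in section D stands in brackets, and no list has a section D median outside -0.13 to 0.19, while the section A medians reach 5.09.

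Of 74 features of zygotic patterning genes, the transcription factors and signals that lay out the body axes, 26 passed the filter on low counts in D, and 0 of these were called, at a median log2 of 0.05. The summed level of all 74 was 2370, 2240 and 1830 CPM in D at 3 dpf and 2260, 2180 and 2060 CPM at 1 dpf, with overlap. In section A 53 of 73 rose and 7 fell, at a median of 4.17. Mesoderm regulator snai1a (LOC110494556) was at 12.9, 13.5 and 5.21 CPM in D at 3 dpf and at 8.49, 11.8 and 7.74 CPM at 1 dpf. The groups overlapped, and the log2 fold change was 0.15 (95% interval -0.79 to 1.08). In A it averaged 206 ± 19.5 CPM at 3 dpf and 7.92 ± 1.74 CPM at 1 dpf (SD, n = 3), and the difference between D and A was -4.61 on the log2 scale (adjusted p = 3.14e-09). T-box gene eomesb was at 7.95, 13 and 6.74 CPM in D at 3 dpf and at 13.4, 12.9 and 21.2 CPM at 1 dpf. In A it rose by 4.18 on the log2 scale. The BMP pseudoreceptor gene bambia was at 5.96, 3.49 and 6.13 CPM in D at 3 dpf and at 4.48, 2.02 and 2.58 CPM at 1 dpf, with overlap, while its mean in A was 248 ± 58.5 CPM at 3 dpf and 3.95 ± 1.62 CPM at 1 dpf.

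The ventral homeobox genes were among the 48 features of that list below the filter in section D. Vent was at 5.96, 0.997 and 6.43 CPM in D at 3 dpf, which were 31 counts in all, and had 0 counts in the 3 libraries of 1 dpf. Vox was at 4.97, 0.997 and 5.21 CPM in D at 3 dpf and at 0, 0.168 and 0.397 CPM at 1 dpf. In section A vent averaged 750 ± 74.5 CPM at 3 dpf and 3.26 ± 2.93 CPM at 1 dpf. Both genes were thus above their 1 dpf level in each 3 dpf library of section D, and neither was part of the test there, which leaves out genes with low counts. The floor of 3 counts was 2.98 CPM in 3 dpf replicate 1.

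RNA that appeared in section A by 3 dpf was then followed into section D. For this, genes were taken that averaged under 1 CPM in section A at 1 dpf and at least 20 CPM there at 3 dpf. There were 109 such genes, chosen from section A alone, and 1 of them passed the filter in D. Their summed level in D was 219, 38.6 and 61.6 CPM at 3 dpf and 26.9, 23.7 and 37.7 CPM at 1 dpf, against 5950 to 6870 CPM in A at 3 dpf. Replicate 1 of 3 dpf stood far above the other libraries in that sum, and replicate 2 was within 1 CPM of the highest 1 dpf library. The endoderm gene gata6 (LOC110530508) shows it, with 26.8, 0.747 and 0.613 CPM in D at 3 dpf and 0.472, 0.841 and 0 CPM at 1 dpf. The carnitine transporter gene slc22a5 was at 17.9, 0 and 0.306 CPM in D at 3 dpf and at 0 in all 3 libraries of 1 dpf. A like excess of 1 library was seen in section C, where 3 dpf replicate 1 summed to 168 CPM and replicates 2 and 3 to 32.5 and 40.6 CPM. In section E it was replicate 2, at 191 CPM, and replicates 1 and 3 were at 67.9 and 49.8 CPM. In section B the 3 dpf sums were 6535, 6856 and 2491 CPM. Gata6 and slc22a5 were picked from replicate 1 of D. Of the 109 genes, 53, 59 and 61 had a count in D at 3 dpf, and 45, 43 and 40 at 1 dpf. Id1 was at 2.98, 2.49 and 2.14 CPM in D at 3 dpf and at 1.65, 0.504 and 0 CPM at 1 dpf. Tomm22 was at 4.97, 1.99 and 5.52 CPM at 3 dpf and at 1.41, 2.35 and 5.36 CPM at 1 dpf, with overlap. Both rest on few counts. Where these RNAs were first made was not tested.

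**Figure D4:**
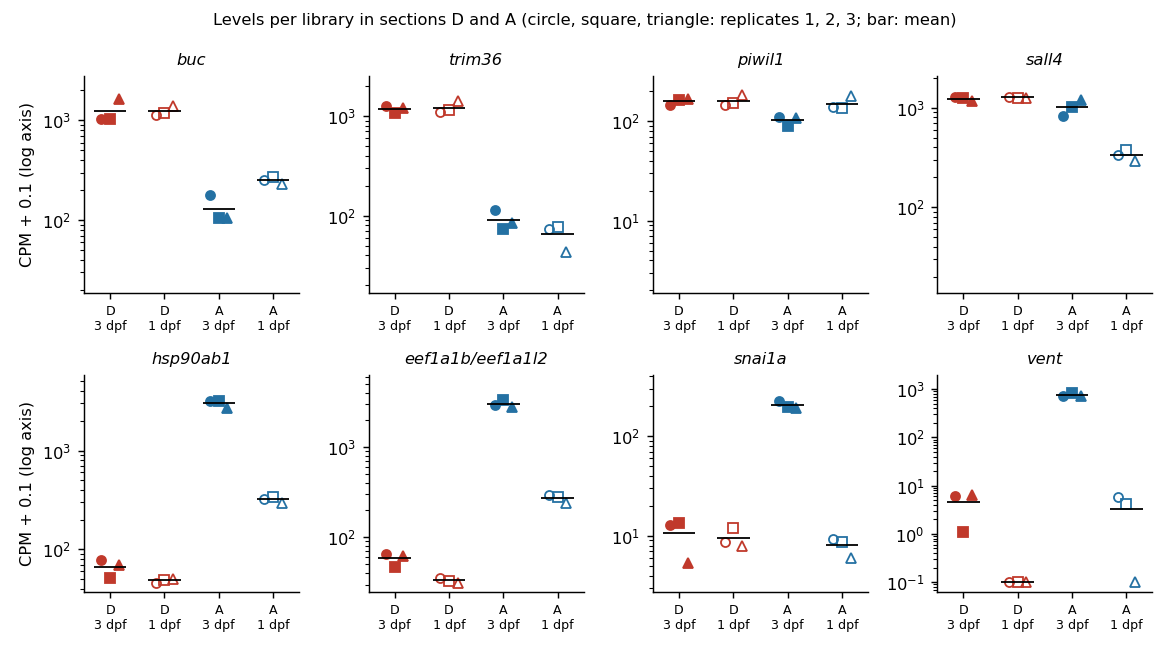
Level of 8 genes in each library of section D (red) and section A (blue) at 3 dpf (filled) and 1 dpf (open), as CPM + 0.1 on a log axis with a bar at the mean. In section D the stages overlap for buc, trim36 (LOC110535019), piwil1, sall4 and snai1a (LOC110494556). In section A sall4, hsp90ab1, eef1a1b/eef1a1l2, snai1a and vent are higher at 3 dpf in every library. Hsp90ab1, eef1a1b/eef1a1l2 and vent are also higher at 3 dpf in every library of section D.

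Sall4, a zinc finger factor of pluripotent cells, was at 1265, 1256 and 1173 CPM in D at 3 dpf and at 1289, 1243 and 1256 CPM at 1 dpf. The groups overlapped, and the 95% interval of the log2 fold change ran from -0.32 to 0.27. In section A it rose by 1.51 on the log2 scale, and the difference between D and A was -1.58 (adjusted p = 5.26e-08). Oocyte genes fell more often than they rose in A. Of 38 tested in D, 0 passed, at a median of 0.08, whereas 22 of 39 fell in section A and 4 rose, at a median of -1.04. Zar1l, which in zebrafish oocytes binds and represses maternal mRNA, was at 104, 115 and 100 CPM in D at 3 dpf and at 86.3, 102 and 74.6 CPM at 1 dpf, with overlap. In A its mean was 109 ± 20.3 CPM at 3 dpf and 373 ± 27.1 CPM at 1 dpf, and the change in D was 2.1 above that in A (adjusted p = 5.79e-08). Figla, an oocyte transcription factor gene, was at 134, 92.7 and 161 CPM in D at 3 dpf and at 90.1, 93 and 121 CPM at 1 dpf, with a difference from A of 2.16 (adjusted p = 6.49e-09).

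Genes that carry out the clearance of maternal mRNA were among those without a call in D. Of 114 such genes tested in section D, 0 passed, at a median of -0.06, while 62 of 117 rose and 32 fell in A, where 27.6% of all genes rose and 25.3% fell. The decapping enzyme gene dcp2 was at 204, 195 and 258 CPM in D at 3 dpf and at 187, 184 and 162 CPM at 1 dpf, a log2 of 0.31 (unadjusted p = 0.0841). The terminal uridylyltransferase gene tut4 (LOC110524685) was at 181, 224 and 90.7 CPM at 3 dpf and at 264, 224 and 261 CPM at 1 dpf, a log2 of -0.59 (unadjusted p = 0.0789). Genome activation regulators had 0 of 81 called in D, at a median of -0.09, and 55 of 91 rose in A. Architectural factor gene ctcf was at 178, 218 and 133 CPM in D at 3 dpf and at 233, 241 and 224 CPM at 1 dpf. The groups did not overlap (log2 -0.39, unadjusted p = 0.0738), and the change in D was 1.77 below that in A (adjusted p = 2.51e-08).

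Germ plasm genes, whose RNA is inherited by the future germ cells, gave 0 of 44 called in D, at a median of -0.02. In section A 16 of 47 rose and 12 fell, at a median of 0.25, where 27.6% of all genes rose and 25.3% fell. Their summed level in A was 7300, 7150 and 6780 CPM at 3 dpf and 3220, 3380 and 3200 CPM at 1 dpf. Buc, the organizer of germ plasm in zebrafish, was at 1033, 1037 and 1628 CPM in D at 3 dpf and at 1129, 1195 and 1395 CPM at 1 dpf, a log2 of 0.00 with a 95% interval from -0.47 to 0.47. In section A buc fell by 1.03 on the log2 scale (adjusted p = 0.00402), and the difference between D and A was 0.96 (SE 0.27, adjusted p = 0.00546). The piRNA pathway gene piwil1 was at 146, 163 and 167 CPM in D at 3 dpf and at 146, 152 and 183 CPM at 1 dpf. The RNA helicase gene ddx4, known as vasa, was at 348, 370 and 244 CPM at 3 dpf and at 335, 350 and 412 CPM at 1 dpf. Dazl, an RNA-binding factor of germ plasm, was at 388, 294 and 587 CPM at 3 dpf and at 282, 304 and 349 CPM at 1 dpf (log2 0.45, 95% interval -0.11 to 1.01).

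Vegetal and dorsal determinants had 0 of 40 called in D, at a median of 0.11, and their copies fell into features with close and with wide replicates. The trim36 copy LOC110535019 encodes a ubiquitin ligase. It was at 1272, 1068 and 1196 CPM at 3 dpf and at 1085, 1136 and 1415 CPM at 1 dpf. The 95% interval of its log2 fold change ran from -0.40 to 0.34. The other copy, LOC110525254, was at 2279, 1008 and 2617 CPM at 3 dpf and at 839, 2319 and 2609 CPM at 1 dpf, and its interval ran from -0.99 to 1.08. The scaffold gene grip2a/grip2b was at 1062, 447 and 1222 CPM at 3 dpf and at 286, 1377 and 1114 CPM at 1 dpf. Hwa, an activator of maternal beta-catenin signalling in zebrafish, was at 137, 72 and 173 CPM at 3 dpf and at 32.1, 130 and 123 CPM at 1 dpf. The lowest library of each stage was 3 dpf replicate 2 and 1 dpf replicate 1 for the second trim36 copy, for grip2a/grip2b and for hwa. The mean of grip2a/grip2b was 2668 and 2139 CPM in section E at 3 dpf and 1 dpf, and 470 and 490 CPM in section C. The histone mRNA binding gene slbp2 was at 1446, 1032 and 2727 CPM in D at 3 dpf and at 746, 1264 and 1701 CPM at 1 dpf (log2 0.50, SE 0.39). Without 3 dpf replicate 2, 319 genes were higher and 552 lower at an unadjusted p of 0.05, and without 1 dpf replicate 1 they were 47 and 94, with 0 called in either case.

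Other groups were likewise without a call in D. Cell cycle genes had 0 of 95 called, at a median of -0.03. Mcm5, a subunit of the replicative helicase, was at 19.9, 22.4 and 24.5 CPM at 3 dpf and at 31.4, 31.1 and 34.7 CPM at 1 dpf, without overlap (log2 -0.52, unadjusted p = 0.0293). The securin gene pttg1 was at 48.7, 62.5 and 61.9 CPM at 3 dpf and at 34.4, 48.4 and 34.7 CPM at 1 dpf, again without overlap and in the other direction (log2 0.58, unadjusted p = 0.0207). DNA replication and repair genes (0 of 41), histone genes (0 of 15), proteasome genes (0 of 62), oxidative phosphorylation genes (0 of 73) and mitochondrial ribosomal protein genes (0 of 62) had medians of 0.02, 0.19, 0.09, 0.02 and 0.05. Heat shock and stress genes had 0 of 67 called, at 0.04. The chaperone gene hsp90ab1 was at 78.5, 51.8 and 68.9 CPM in D at 3 dpf and at 46, 49.1 and 50.4 CPM at 1 dpf, without overlap (log2 0.45, unadjusted p = 0.0508). In A it averaged 2993 ± 254 CPM at 3 dpf and 321 ± 22.6 CPM at 1 dpf, and the change in D was 2.75 below that in A (adjusted p = 2.06e-06). Yolk and lysosome enzymes (0 of 48), amino acid transport and synthesis genes (0 of 51), and Wnt, BMP, Nodal and FGF pathway components (0 of 64) had medians of 0.11, 0.03 and -0.13. The median over all genes tested in D was 0.01.

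Markers of cell types that could reach a lower section were followed too. The yolk syncytial layer is the nucleated layer that forms where the blastoderm meets the yolk, and the enveloping layer is the outermost sheet of the blastoderm. Of 25 features of yolk syncytial layer genes 10 were tested in D and 0 passed, at a median of 0.05, while 19 of 25 rose in A. The summed level of the 10 yolk syncytial layer markers was 252, 222 and 248 CPM in D at 3 dpf and 202, 217 and 237 CPM at 1 dpf. Mxtx1, one of these markers, was at 13.9, 5.48 and 3.06 CPM in D at 3 dpf and at 7.78, 6.56 and 5.16 CPM at 1 dpf. Hnf4a was at 3.97, 0 and 0 CPM at 3 dpf and at 0 in all 3 libraries of 1 dpf. Gata6 (LOC110530508), also among these markers, was at 26.8, 0.747 and 0.613 CPM at 3 dpf and at 0.472, 0.841 and 0 CPM at 1 dpf. The 10 enveloping layer markers summed to 106, 141 and 140 CPM at 3 dpf and to 126, 143 and 130 CPM at 1 dpf, with the keratin gene krt5 at 0 in all 6 libraries. The 31 envelope and periderm genes had 0 of 23 called, at a median of -0.03. The 9 blastoderm markers summed to 463, 555 and 618 CPM at 3 dpf and to 513, 524 and 544 CPM at 1 dpf. Germ cell markers (10 features) summed to 986 to 1180 CPM at 3 dpf and to 944 to 1160 CPM at 1 dpf, and the 4 sperm and testis markers to 43.2 to 57.6 and 46.6 to 63.4 CPM. The only liver and yolk precursor marker matched, the transferrin gene tfa, was at 5.96, 6.23 and 14.4 CPM at 3 dpf and at 8.73, 9.25 and 11.3 CPM at 1 dpf. No feature matched the markers of blood or of ovarian follicle cells.

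The genes with the smallest unadjusted p in section D were chosen after their values were seen, and none passed the adjusted threshold. Lowest was ccdc88c, a regulator of Wnt signalling that binds Dishevelled, at 228, 200 and 188 CPM at 3 dpf and at 324, 489 and 695 CPM at 1 dpf. The groups did not overlap, and the log2 fold change was -1.28 (SE 0.27, 95% interval -1.89 to -0.68, unadjusted p = 0.00108, adjusted p = 1). Its fitted value was -1.03 in section C, -0.87 in section E and 0.34 in section A, and the change in D was 1.60 below that in A (SE 0.43, adjusted p = 0.00362). Ttf2 was at 56.6, 64.8 and 50.3 CPM at 3 dpf and at 97.9, 93.2 and 123 CPM at 1 dpf, a log2 of -0.86 (SE 0.18, unadjusted p = 0.00122). It was lower by 0.57, 0.59 and 0.53 on the log2 scale in A, C and E as well, as fitted, and the difference between D and the other 4 sections did not pass (-0.28, adjusted p = 0.275).

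Both copies of adar, which encodes an enzyme that converts adenosine to inosine in double-stranded RNA, lay lower at 3 dpf in D and rose in A. The copy named adar averaged 47.6 ± 9.23 CPM in D at 3 dpf and 75.7 ± 5.34 CPM at 1 dpf (SD, n = 3), a log2 of -0.66 (edgeR, adjusted p = 1). Its libraries did not overlap between stages. The copy LOC110534250 was at 74.5, 92.2 and 70.8 CPM at 3 dpf and at 115, 117 and 124 CPM at 1 dpf, a log2 of -0.57 (unadjusted p = 0.0062). In A they rose by 1.23 (adjusted p = 9.39e-05) and 1.41 (adjusted p = 6.08e-05) on the log2 scale, and their changes in D were 1.94 (adjusted p = 5.74e-06) and 2.03 (adjusted p = 1.41e-06) below those in A. Reads that fit both copies may have been divided or set aside in the counting, so the level of a single copy is uncertain. In the opposite direction, asb11, which in zebrafish acts on Notch signalling, was at 15.9, 14.7 and 18.4 CPM in D at 3 dpf and at 8.73, 7.73 and 9.52 CPM at 1 dpf, a log2 of 0.92 (SE 0.26, unadjusted p = 0.00679). In A it averaged 479 ± 78.2 CPM at 3 dpf and 9.12 ± 5.05 CPM at 1 dpf, a log2 of 5.66.

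Against the mean change of the other 4 sections, the change in D was higher for 565 genes (2.46%) and lower for 667 (2.9%). Under library-size scaling, which moved the median difference to 0.12 from 0, the counts were 1369 and 454. They were 142 and 235 without the replicate terms, and 113, 138 and 94 higher and 237, 255 and 171 lower without 1 dpf replicate 1, 2 or 3. Without 3 dpf replicate 2 there were 300 higher, and without all libraries numbered 3 there were 330. The 12 genes with the smallest adjusted p and a name had a log2 fold change between -0.54 and 0.28 in D, and all 12 were called in A and, other than atp6v0a2a, in B. Among those lower in A at 3 dpf, klf6a, a zinc finger factor, was at 72.5, 76 and 119 CPM in D at 3 dpf and at 67.4, 71 and 83.9 CPM at 1 dpf, with overlap (log2 0.28, 95% interval -0.21 to 0.78). It averaged 20.3 ± 0.614 CPM in A at 3 dpf and 174 ± 52.1 CPM at 1 dpf, and its difference from the other sections was 1.26 (SE 0.17, adjusted p = 0.000564). Proton pump subunit gene atp6v0a2a was at 154, 156 and 188 CPM in D at 3 dpf and at 136, 140 and 142 CPM at 1 dpf (difference 0.86, adjusted p = 0.000726).

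The 6 named genes with a lower change in D were rbmx, hnrnpa0b, tspan3a, pbx4, u2af2a and srsf6a/srsf6b, and all 6 rose in A. Srsf6a/srsf6b, a splicing factor of the SR family, was at 143, 146 and 177 CPM in D at 3 dpf and at 143, 152 and 178 CPM at 1 dpf, a log2 of -0.01 with a 95% interval from -0.37 to 0.35. Its mean in A was 654 ± 50.4 CPM at 3 dpf and 115 ± 2.61 CPM at 1 dpf, and its difference from the other 4 sections was -0.96 (SE 0.14, adjusted p = 0.000564). Hnrnpa0b (LOC110488571), an RNA-binding protein gene, was at 222, 277 and 180 CPM in D at 3 dpf and at 230, 244 and 220 CPM at 1 dpf, against 2226 ± 279 CPM in A at 3 dpf and 316 ± 94.5 CPM at 1 dpf. Splicing factor gene u2af2a (LOC110508966), whose protein binds the polypyrimidine tract, was at 10.9, 13.7 and 10.7 CPM in D at 3 dpf and at 18.6, 17 and 16.7 CPM at 1 dpf, without overlap (log2 -0.54, unadjusted p = 0.0546). Its difference from the other sections was -1.89 (SE 0.27, adjusted p = 0.000564).

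The genes with the highest CPM in section D, a scale that is not corrected for gene length, were nearly the same at both stages. Trip6, trim36 (LOC110525254), raver1 and myh9a were among the first 5 at 3 dpf, and mast3a was among the first 5 at 1 dpf. Trip6, an adhesion protein gene of the zyxin family, was at 3783, 2589 and 2840 CPM at 3 dpf and at 2637, 2943 and 3953 CPM at 1 dpf (log2 -0.04, SE 0.22). The nonmuscle myosin gene myh9a was at 2941, 2052 and 3711 CPM at 3 dpf and at 1816, 2484 and 3105 CPM at 1 dpf (log2 0.24, 95% interval -0.36 to 0.85). In both of these genes the 3 dpf replicates spanned more than the gap between the stage means.

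Some replicates differed in a recurrent way. Libraries numbered 3 stood apart at both stages. Of 13819 genes with a mean of at least 10 CPM in D, 161 were at least 2-fold above both other replicates and 230 at least 2-fold below both, at 3 dpf and at 1 dpf alike, in the libraries numbered 3. For number 1 these counts were 0 and 1, and for number 2 they were 0 and 1. The genes apart included on and off patterns. The part of these differences in the results of section D was examined only by other fits. With the replicate number as a block, edgeR gave 375 genes higher and 702 lower at an unadjusted p of 0.05. By stage alone there were 133 and 205, of the same 19828 genes tested, and neither fit called a gene. In a calibrated test, a share of about 0.05 of unchanged genes falls under that p. The fit without these libraries is given last here. Klhdc8b (LOC110491167), a kelch domain protein gene, was at 0.994, 0.747 and 235 CPM in D at 3 dpf and at 0.943, 1.35 and 178 CPM at 1 dpf. Mkxa, a homeobox gene, was at 31.8, 29.4 and 0 CPM at 3 dpf and at 35.8, 41.2 and 0.198 CPM at 1 dpf. Ldlrap1a (LOC110487855), an endocytic adaptor gene, was at 0, 0 and 97.1 CPM at 3 dpf and at 0.236, 0.168 and 85.7 CPM at 1 dpf. Over the 5 sections of both stages it was at 81.2 to 183 CPM in the libraries numbered 3 and at 0 to 1.12 CPM in those numbered 1 or 2. Number 3 was apart in the other sections too, with 65 genes above and 114 below in A, 154 and 223 in C, and 173 and 249 in E. Leaving out both libraries numbered 3 in section D left 0 genes called (321 higher and 430 lower at an unadjusted p of 0.05, smallest adjusted p 0.798).

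**Figure D5:**
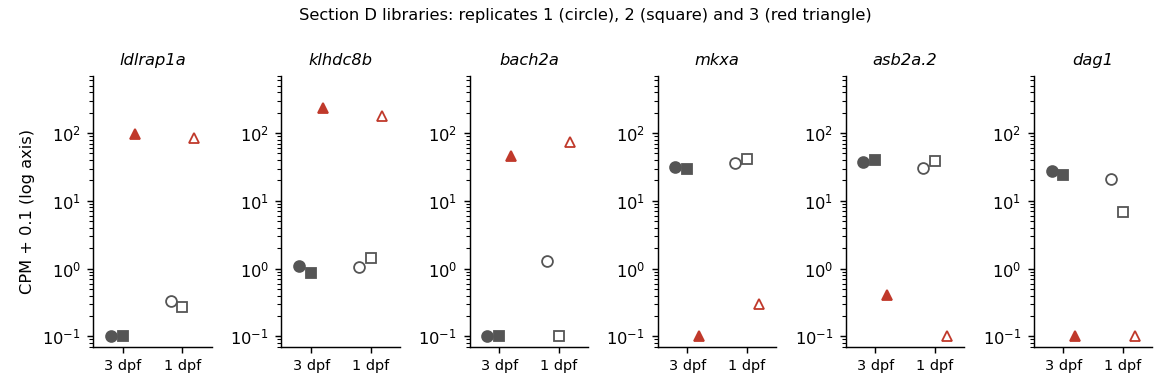
Levels in the 6 section D libraries, as CPM + 0.1 on a log axis, of the 3 named genes farthest above and the 3 farthest below the other replicates in the libraries numbered 3 (red triangles; circles and squares are numbers 1 and 2; 3 dpf filled, 1 dpf open). For klhdc8b (LOC110491167) the triangles stand at 235 and 178 CPM and the other libraries at 0.747 to 1.35 CPM.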

How the data were processed

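The authors deposited whole-number read counts per gene for each library. Per the submitters' processing notes, fastp 0.23.4, STAR 2.7.11, HTSeq 2.0.4 and DESeq2 were used. For the build and the strandedness used in counting, the sources used here give nothing, and neither coordinates nor lengths were used. Of 23471 features 23470 were found in the RefSeq table of assembly USDA_OmykA_1.1. Names are the trout symbol (6165 features) or that of the zebrafish ortholog in a table deposited by the authors (6873), and 10433 had neither. The labels list 60 libraries, of which 55 have counts, and the 5 libraries of 1 hpf replicate 2 were not analysed here.

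Counts were tested with edgeR 4.0.16 (R 4.3.3): TMM, filterByExpr with a minimum count of 10, glmQLFit and glmQLFTest, Benjamini-Hochberg adjustment over all genes tested, threshold 0.05, two-sided. The 6 section D libraries were fitted by stage alone, so differences between replicate numbers stayed in the spread behind its p-values, SEs and intervals. Differences between sections came from 1 fit of 30 libraries with 6 replicate terms. The spread shared over 30 libraries came from a fit without replicate terms. DESeq2 1.42.0 was an alternative. Intervals (95%) use the fit's degrees of freedom. Depths and floors (3 counts) cover counting error only. The labels do not say whether replicates share parents. A p-value here reflects only how far these samples scatter, part of which may be technical. The fits were tested on simulated data with known changes. Those data held no differences between replicate numbers and changed genes in section D alone, unlike the real libraries.

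Same-numbered section D libraries of the 2 stages deviated together from their stage means across genes (correlations 0.35, 0.35 and 0.65, all above 0.1), which by the rule used counts as paired. Differently numbered pairs of 1 and 2 reached 0.27 and 0.42, and pairs with number 3 lay between -0.56 and -0.4. The rule therefore does not tell numbers 1 and 2 apart, and the values set only number 3 apart.

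The comparison and the gene lists were chosen with earlier results of these data known. Genes were named by rule: up to 12 called genes in each direction in section D (none), the 4 members of each list with the smallest p, the 6 genes in each direction with the smallest p for the difference between D and the other sections at a mean of at least 10 CPM, the 5 highest of each stage and markers of cell types. Genes with the smallest unadjusted p, genes that set the libraries numbered 3 apart and genes chosen by their levels in section A were added after values were seen.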

Additional observations from a re-analysis of the deposited data

Results flagged for a closer look

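The stage change in section D differed from the mean change of the other 4 sections in 12 named genes, by edgeR's test of the difference itself (log2 scale, adjusted p from 0.000564 to 0.000734). The change in D was higher for klf6a (1.26), boka (1.34), fbxo34 (1.32), atp6v0a2a (0.86), stx11a (0.82) and zdhhc9 (1.04). It was lower for rbmx (-1.23), hnrnpa0b (-1.26), tspan3a (-1.16), pbx4 (-1.14), u2af2a (-1.89) and srsf6a/srsf6b (-0.96). In section D itself none of the 12 passed the test, and their fitted changes there ran from -0.54 (u2af2a) to 0.28 (klf6a), against -3.58 (boka) to 3.46 (u2af2a) in section A. Against section C alone and section E alone 0 genes differed in their stage change by edgeR (630 and 504 at an unadjusted p of 0.05), and no difference of D from these neighbours was shown. Zdhhc9 lost its call without the replicate terms (1.09, adjusted p = 0.0869). These genes were named for this difference.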

How the results depend on the processing

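In section D the count of called genes was 0 higher and 0 lower under the replicate block, library-size scaling, DESeq2, no filter, the stricter filter, the 2-fold minimum, each of 6 left-out libraries and the 2 against 2 fit without number 3. With the spread shared over 30 libraries and no replicate terms it was 0 higher and 1 lower. The cause was not tested. The replicate block changed no call, at 375 genes higher and 702 lower at an unadjusted p of 0.05. Against the other 4 sections, 565 genes higher and 667 lower became 142 and 235 without the replicate terms, 1369 and 454 with library-size scaling, and 330 and 589 without the libraries numbered 3 (added after the data were seen); leaving out the 5 sections of 1 replicate gave 94 to 469 higher and 171 to 712 lower, with fewer samples (higher 300 without 3 dpf replicate 2; higher 113, 138 and 94 and lower 237, 255 and 171 without 1 dpf replicate 1, 2 or 3). Against section A the counts kept within 1.5 times under every alternative (leave-one-out 4215 to 4966 higher, 4198 to 4821 lower), and against C and E they stayed at 0. Zdhhc9 lost its call without the replicate terms (1.09, adjusted p = 0.0869). Of the values of single genes under alternatives, 207 changes in D and 131 differences from the other sections kept their direction and side of the threshold. The other cases were ttf2 and zdhhc9, and no direction turned. The depth of 3 dpf replicate 1 limits low genes in section D.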
